A study of Mus musculus with 15 samples.

Results

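Messenger RNA levels of 10 genes of antigen processing and presentation were followed through 5 cell populations sorted from the mouse pancreas. The genes, listed by name, were B2m, Tap1, Tap2, Tapbp, Psmb8, Psmb9, Nlrc5, Ciita, Cd74 and H2-Aa. They are 10 of the 19938 genes that had a probe set naming a single gene, and 10 of 10 passed the filter on dim genes that left 16883 genes for testing. Where a gene had several probe sets, the one brightest on average across the 15 arrays stood for it. The probe set of a gene measures one stretch of its transcripts, so levels are compared between arrays within a gene and never between genes.

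The study set pancreatic progenitors beside the cells that succeed them, using mice in which the enhanced green fluorescent protein EGFP reports Sox9, a transcription factor of progenitors and duct cells, or Ngn3 (Neurog3), the factor of endocrine precursors. Males carrying Sox9-EGFP or Ngn3-EGFP were bred with CD1 females, CD1 being an outbred strain. Pancreatic cells with a strong green signal were sorted, several animals were pooled in each sort, and 20 ng of RNA from each sort was amplified for an Affymetrix gene array. Each population had 3 arrays. These were Sox9-GFP+ cells of e10.5 (e for embryonic day) and of e15.5, Ngn3-GFP+ cells of e15.5, Sox9-GFP+ cells of postnatal day 23 (p23) and, from Sox9-EGFP pancreata of p23, cells without the signal (GFP-). The sorting protocol names no gate against leukocytes or endothelial cells. The labels do not say whether the 3 arrays of a group came from separate litters, so p-values measure the spread between these pooled samples.

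Nucleated cells show peptides from their cytoplasm on class I molecules of the major histocompatibility complex. The proteasome cuts the proteins, the transporter Tap1-Tap2 carries the peptides into the endoplasmic reticulum, tapasin (Tapbp) bridges the transporter to empty class I molecules, and the light chain B2m pairs with every class I heavy chain. Interferon swaps the catalytic proteasome subunits for Psmb8 and Psmb9, which changes the peptides that are made. Professional presenting cells such as B cells and dendritic cells also carry class II molecules, among them the chain H2-Aa, with Cd74 as the chaperone that guards the groove. Nlrc5 and Ciita are coactivators that bind no DNA themselves. They act through an assembly of RFX, CREB and NF-Y proteins on the X1, X2 and Y boxes of class I and class II promoters respectively.

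The promoters on which these coactivators and the interferon factors work are shown first, since several members lie next to each other in the class II region of chromosome 17 and Psmb9 and Tap1 share a promoter. Promoter windows from RefSeq on mouse build GRCm38.p6 ran from 250 bases before to 50 bases after the start. They were searched for 6 of the 10 members: B2m, Tap1, Tapbp, Psmb8, Psmb9 and H2-Aa. No window was found for Tap2, Nlrc5 and Ciita, and Cd74 was left out of the search. The counts of member windows below therefore do not cover the class II gene Cd74. Each line gives only bases before the start, 5′ to 3′ on the gene's strand. Capitals mark matches, on either strand, to the Y box (CCAAT), the X2 box (TGACG), an interferon response element (GAAA, any 2 bases, GAAA) or a STAT site (TTCNNNGAA). Psmb9 and Tap1 start back to back, at 34187330 and 34187556, and all 225 bases between the starts are shown. These bases lie at chr17:34187331-34187555 and are written on the strand of Tap1. The others are H2-Aa at chr17:34287824-34288023 on the minus strand, B2m at chr2:122147487-122147686 on the plus strand and Psmb8 at chr17:34197995-34198194 on the plus strand.
Psmb9 and Tap1: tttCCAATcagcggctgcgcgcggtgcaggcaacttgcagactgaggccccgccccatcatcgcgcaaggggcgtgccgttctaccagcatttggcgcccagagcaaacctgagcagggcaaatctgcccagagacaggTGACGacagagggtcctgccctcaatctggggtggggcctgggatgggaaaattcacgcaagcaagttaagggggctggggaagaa
H2-Aa: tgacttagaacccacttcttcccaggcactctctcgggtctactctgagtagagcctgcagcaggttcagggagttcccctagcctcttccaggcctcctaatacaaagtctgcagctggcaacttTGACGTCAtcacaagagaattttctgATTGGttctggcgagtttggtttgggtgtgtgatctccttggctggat
B2m: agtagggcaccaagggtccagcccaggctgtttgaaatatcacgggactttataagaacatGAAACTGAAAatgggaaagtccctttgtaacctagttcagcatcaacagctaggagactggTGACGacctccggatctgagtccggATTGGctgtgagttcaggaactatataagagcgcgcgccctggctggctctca
Psmb8: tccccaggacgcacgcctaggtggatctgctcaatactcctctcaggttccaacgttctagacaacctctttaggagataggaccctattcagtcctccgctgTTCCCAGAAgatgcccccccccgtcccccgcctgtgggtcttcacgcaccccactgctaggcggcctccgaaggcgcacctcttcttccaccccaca

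A Y box was found in 5 of the 6 member windows and in 37.4% of the 32851 promoter windows of the same length. An X2 box was found in 4 of the 6 and in 20.8% of all windows. Y and X2 boxes stood together in the windows of B2m, H2-Aa, Psmb9 and Tap1 and in 7.73% of all windows. The windows of Psmb9 and Tap1 hold the same pair of matches, with Y from -222 and X2 from -86 of the Tap1 start. That pair lies farther apart than those of B2m and H2-Aa. In B2m the X2 match begins 25 bases before the Y match, and in H2-Aa 26 bases before it, where the palindrome TGACGTCA gives overlapping matches on both strands. The interferon response element of B2m lies at -139 to -130 from the start and occurs in 3.44% of windows, and the STAT match of Psmb8 lies at -97 to -89, a motif found in 8.3%. The spelling CCNNGNAAC of the X1 box matched 0 of the 6 member windows and 15.1% of all windows. A match describes letters and was not tested as a binding site.

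Levels below are log2(intensity + 16), where intensity is the deposited array value and 16 is an offset that damps noise near background, so changes of dim genes are understated. A gene was called at an adjusted p of 0.05 in a limma fit of all 15 arrays, with Benjamini-Hochberg adjustment over the 16883 genes within each comparison. A level of 6.83 is the 30th percentile of all values and serves as the mark for dim signal.

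The array medians ran from 165 to 212 intensity units, and the Sox9-GFP+ arrays of e15.5, at 165 to 175, lay at the low end. Sox9 itself was higher in Sox9-GFP+ than in GFP- cells of p23 by 2.37 ± 0.32 (SE, limma adjusted p = 3.45e-05). Replicates 2 and 3 of Sox9-GFP+ p23 carried more leukocyte signal than replicate 1: Ptprc, the pan-leukocyte phosphatase CD45, read 8.12, 10.64 and 10.09 in the 3 arrays, against 6.49 to 6.60 in Sox9-GFP+ e15.5 and 14.28 to 14.64 in GFP- cells. Members that rest on those arrays are given with and without them. RNA from a few cells of a type and a low level in many cells cannot be told apart in such bulk samples.

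**Figure D1:**
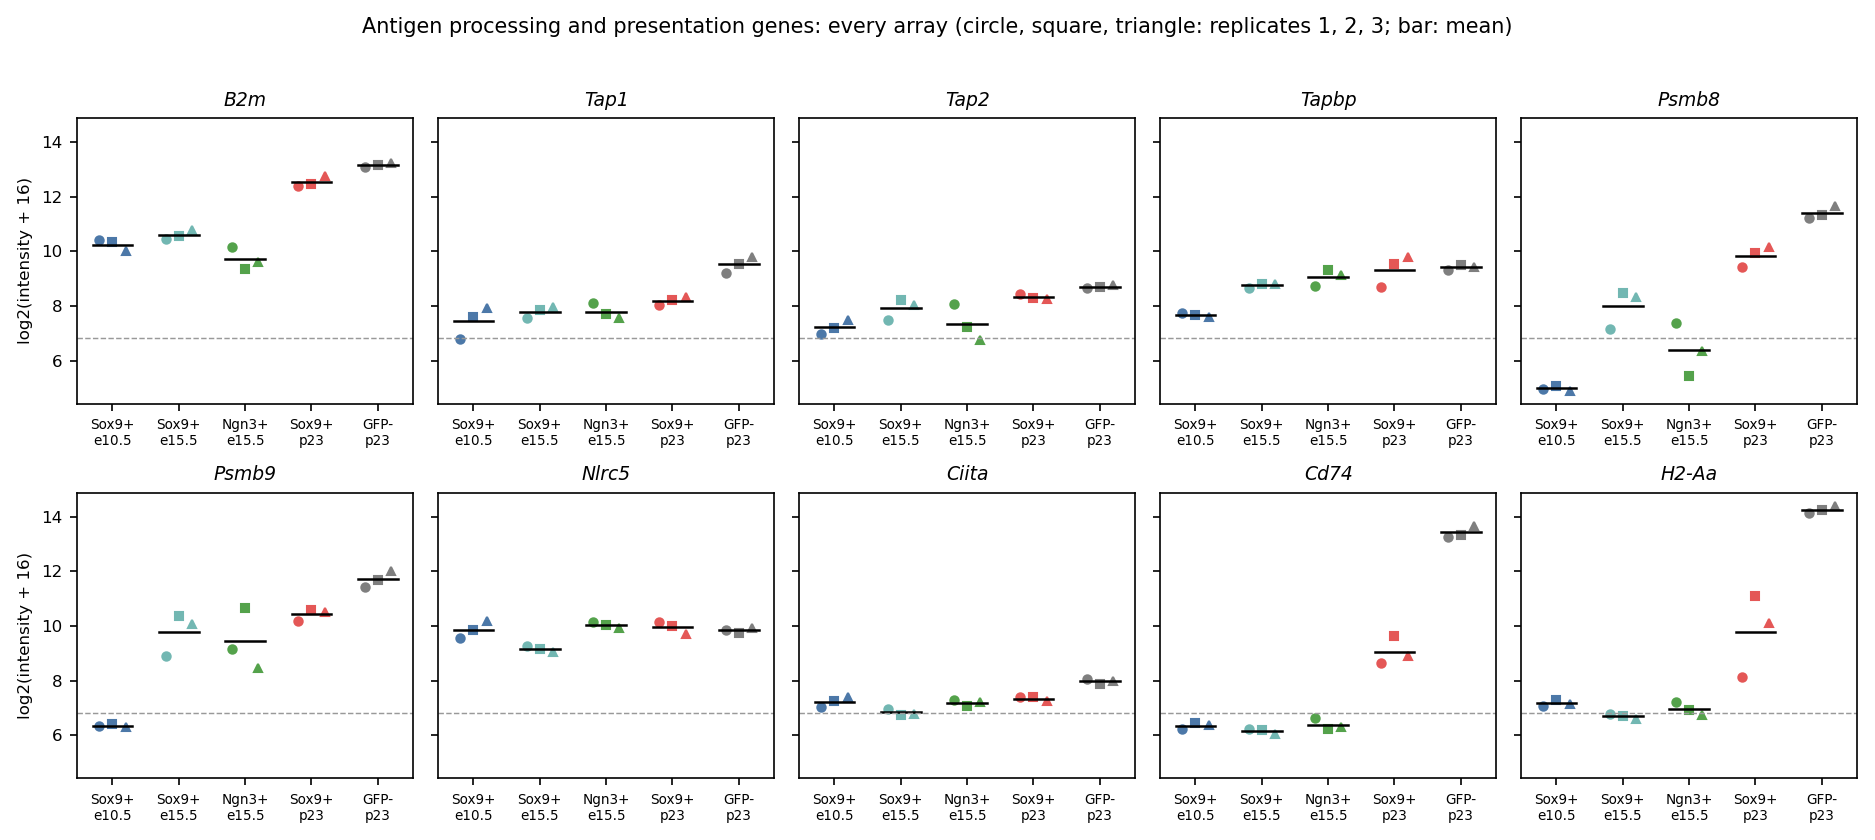
Level of each of the 10 genes in every array, as log2(intensity + 16), with replicates 1, 2 and 3 drawn as circle, square and triangle, bars at group means and a dashed line at 6.83, the 30th percentile of all values. Psmb8 and Psmb9 leave the dim range between e10.5 and e15.5, Cd74 rises above it only at p23, H2-Aa lies around it in the embryonic arrays, and GFP- cells are highest for 9 genes, not for Nlrc5.

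Between e10.5 and e15.5 the immunoproteasome subunits Psmb8 and Psmb9 rose more than 8-fold in Sox9-GFP+ cells and tapasin about 2.15-fold, while the transporter, B2m and the class II genes were not called higher. Nlrc5 and Ciita fell. Of the 10 members 3 were called higher and 2 lower, where 28.2% of all genes tested were called, 12.2% higher and 16% lower. The median change of the members was 0.35 on the log2 scale and that of all genes -0.05. The share of calls that were higher depended on scaling: among all genes it was 43.3% as deposited, 62.7% after quantile normalization and 73.7% after median centring, which moved the median of all genes to 0.11. The 3 rises were called at both of those scalings.

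Psmb9, the subunit that replaces Psmb6 in the immunoproteasome, read 6.33, 6.41 and 6.31 at e10.5 and 8.90, 10.38 and 10.08 at e15.5. All e10.5 arrays were dim, every e15.5 array was clear of them, and the rise was 3.44 ± 0.44 (SE, limma adjusted p = 0.000116), or 10.8-fold of intensity plus 16. Psmb8, which replaces Psmb5, read 4.98, 5.08 and 4.90 at e10.5 and 7.17, 8.49 and 8.33 at e15.5. It too was dim in every e10.5 array and clear in every e15.5 array, a rise of 3.01 ± 0.40 (SE, limma adjusted p = 0.000152). For both genes replicate 1 was the lowest of the e15.5 arrays.

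Hbb-y, an embryonic globin of red blood cells, read 10.48, 11.20 and 6.05 in the e10.5 arrays and 9.98, 5.93 and 6.35 in the Sox9-GFP+ arrays of e15.5, so e10.5 replicates 1 and 2 and e15.5 replicate 1 carried its signal. Without those 3 arrays Psmb9 rose by 3.92 and Psmb8 by 3.50 (limma adjusted p = 0.00552 and 0.00539). The lone remaining e10.5 array is then assumed to vary like the other groups.

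Markers of other pancreatic cells moved over the same interval. All 6 acinar genes tested rose, with a median change of 3.06, and their summed intensity went from between 978 and 1642 to between 18560 and 26073. Of 7 endocrine genes 5 rose, and of 6 duct genes 3 rose, with none lower in either list. Of 8 mesenchyme genes 3 rose and 0 fell, among them the matrix proteoglycan genes Dcn by 3.18 and Lum by 2.40, and the list summed to 4430 to 4472 at e10.5 and 6163 to 7953 at e15.5. The leukocyte list had 0 of 10 genes called by limma in either direction, with 3 at an unadjusted p under 0.05. The part of these cells in the rises of Psmb8, Psmb9 and Tapbp was not tested.

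Psmb9 was called higher in this interval, and Tap1, which shares the promoter printed above with it, was not. Tap1, one chain of the peptide transporter, read 6.79, 7.59 and 7.94 at e10.5 and 7.57, 7.85 and 7.96 at e15.5. The groups overlapped, and the difference of 0.36 ± 0.25 was not called (limma adjusted p = 0.286). Whether the change of Psmb9 exceeded that of Tap1 was not tested.

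Tap2, the other chain of the transporter, read 6.99, 7.19 and 7.48 at e10.5 and 7.49, 8.22 and 8.02 at e15.5. The groups only just failed to overlap, and the difference of 0.69 ± 0.26 was not called as deposited (limma adjusted p = 0.0629) but was after quantile normalization (0.0381) and median centring (0.0269). Tapbp rose from 7.59 to 7.73 at e10.5 to 8.68 to 8.82 at e15.5. The change was 1.11 ± 0.22 (SE, limma adjusted p = 0.00312), with the arrays of each group close together. B2m read 10.42, 10.32 and 10.001 at e10.5 and 10.47, 10.55 and 10.77 at e15.5. Each later array lay above each earlier one, but the difference of 0.35 ± 0.18 was not called (limma adjusted p = 0.159).

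Nlrc5, the class I coactivator, went the other way. It read 9.55, 9.86 and 10.19 at e10.5 and 9.27, 9.15 and 9.03 at e15.5, a fall of 0.71 ± 0.16 on the log2 scale (SE, limma adjusted p = 0.00636) between groups that did not overlap. The array holds 19 probe sets for Nlrc5, of which 17 passed the filter. Tested one by one, 8 of the 17 were called lower and 0 higher, with changes from -0.71 to -0.17, so the reported probe set is the most negative of them. Ciita, the class II coactivator, read 7.03, 7.25 and 7.41 at e10.5 and 6.97, 6.76 and 6.78 at e15.5, a fall of 0.39 ± 0.12 (SE, limma adjusted p = 0.0279). Its call was lost after quantile normalization (-0.16, adjusted p = 0.205) and median centring (-0.23, adjusted p = 0.0800), and Nlrc5 kept its call in both (-0.80 and -0.55). The low array medians at e15.5 move with these changes, and their part in them was not tested.

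Cd74 and H2-Aa gave weak signal in all embryonic arrays. Cd74 lay between 6.06 and 6.62 in the 9 arrays of e10.5 and e15.5, below the mark for dim signal in each. H2-Aa lay between 6.61 and 7.29, around that mark. Neither was called different between e10.5 and e15.5 (-0.19 and -0.48, limma adjusted p = 0.501 and 0.471). For H2-Aa every e15.5 array lay below every e10.5 array, and it was called lower with only the compared groups in the fit (adjusted p = 0.00856) and without replicates 2 and 3 of Sox9-GFP+ p23 (adjusted p = 0.0227).

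Around the members, the constitutive core of the proteasome was not called in this interval. Of its 14 genes 0 were called higher and 0 lower by limma, with 2 at an unadjusted p under 0.05. The median change of the core genes was 0.17, against -0.05 for all genes. Psmb5, Psmb6 and Psmb7, the catalytic subunits that Psmb8, Psmb9 and Psmb10 replace, differed by 0.13, 0.26 and 0.09. Psmb10, the remaining inducible subunit, rose by 0.82 ± 0.19 (SE, limma adjusted p = 0.00827). Of 14 measured genes of peptide supply and loading outside the members 5 rose and 0 fell, led by Erap1, the aminopeptidase that trims peptides in the endoplasmic reticulum, at 1.78 ± 0.15. Of 10 tested class I heavy chain and related genes 3 rose and 0 fell: Mr1, which presents vitamin metabolites, by 1.03, the lipid-presenting Cd1d1 by 0.65 and H2-Q4 by 0.65. The classical heavy chains H2-K1 and H2-D1 lie on probe sets that name several genes and were not analysed here. Among 16 interferon receptor, kinase, STAT and IRF genes 7 rose and 0 fell, including both chains of the interferon gamma receptor, Ifngr1 by 1.08 and Ifngr2 by 1.16, and the repressor and activator Irf2 by 1.17.

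**Figure D2:**
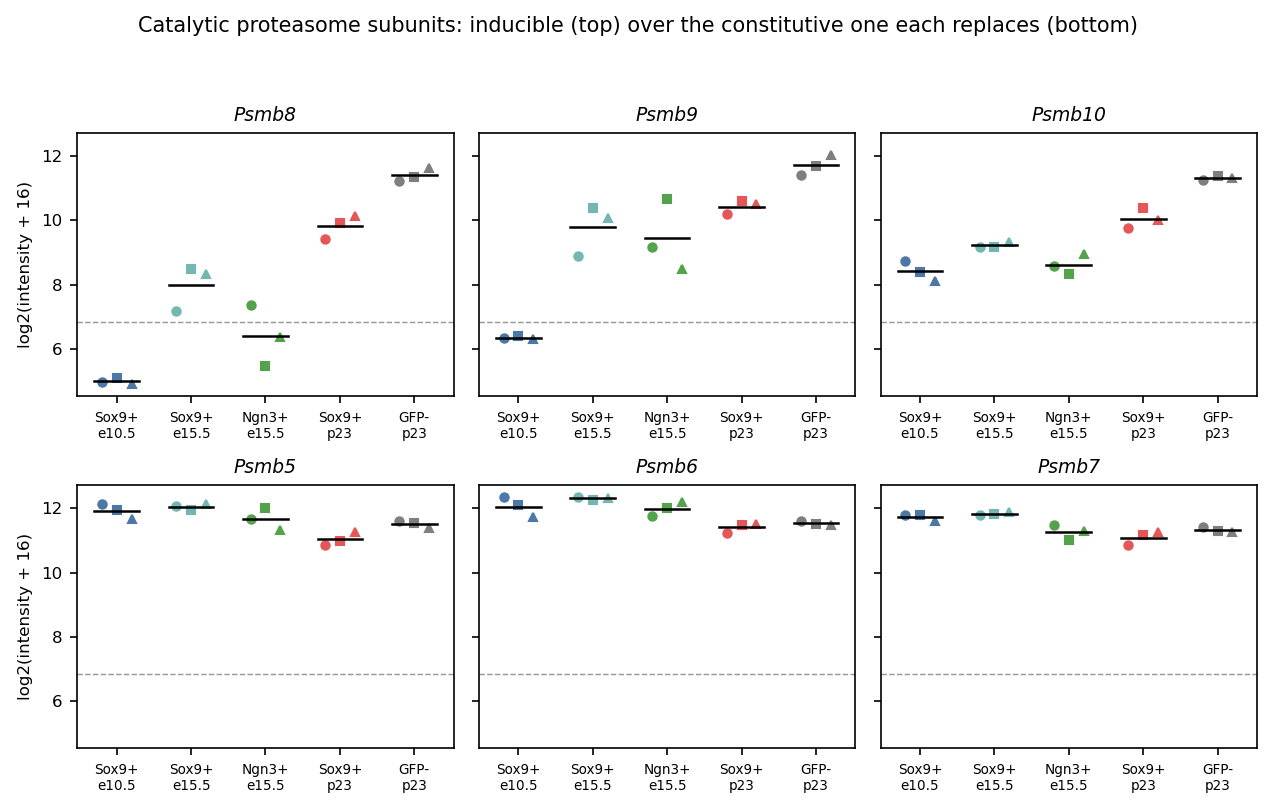
Inducible catalytic proteasome subunits (top row) above the constitutive subunit each replaces (bottom row), as log2(intensity + 16) in every array, with bars at group means and a dashed line at 6.83. Psmb8, Psmb9 and Psmb10 are higher at e15.5 than at e10.5 in Sox9-GFP+ cells with no overlap, while Psmb5, Psmb6 and Psmb7 overlap between these groups and are lower at p23 than at e15.5.

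From e15.5 to p23, 7 of the 10 members rose in Sox9-GFP+ cells and 0 fell, with the largest changes in the class II genes Cd74 and H2-Aa and in B2m. Among all genes 57.5% were called, 30.7% higher and 26.8% lower. The members' median change was 0.72 against 0.05 over all genes, and the 3 not called were Tap1, Tap2 and Psmb9. Higher calls were 53.4% of all calls as deposited and 39.4% after median centring, which moved the median of all genes to -0.11. Under that centring 6 members rose and Tapbp lost its call. With p23 replicate 1 alone, a lone array assumed to vary like the other groups, Tapbp and Psmb8 lost their calls, at differences of -0.079 and 1.41. This comparison shares its e15.5 arrays with the one above. Across the whole span from e10.5 to p23, 8 members rose and 0 fell, and Nlrc5 and Ciita were not called, where 41% of all genes were called, 17.7% higher and 23.3% lower. Taking only replicate 1 of p23, Tap1 lost its call, at a difference of 0.61. The members' median change over that span was 1.97, against -0.01 for all genes.

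B2m read 10.47, 10.55 and 10.77 at e15.5 and 12.38, 12.46 and 12.74 at p23. The p23 arrays lay close together and far above, a rise of 1.93 ± 0.18 (SE, limma adjusted p = 1.73e-06). With only replicate 1 of p23, the array with the least leukocyte signal, B2m rose by 1.78 (adjusted p = 0.000410). Psmb8 read 7.17, 8.49 and 8.33 at e15.5 and 9.41, 9.93 and 10.15 at p23, a rise of 1.83 ± 0.40 between groups that did not overlap (SE, limma adjusted p = 0.00189). It was not called with p23 replicate 1 alone, where the difference was 1.41 (adjusted p = 0.0669).

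Psmb9 had reached 8.90 to 10.38 at e15.5 and read 10.19, 10.59 and 10.51 at p23. The groups overlapped, and the difference of 0.65 ± 0.44 was not called (limma adjusted p = 0.221). Tested as later minus earlier change, 47.8% of all genes were called, 26.8% higher and 21% lower, and 6 members were called, 5 higher and Psmb9 lower. For Psmb9 the later change was smaller than its earlier one by 2.79 ± 0.77 on the log2 scale (limma adjusted p = 0.0103), whereas for Psmb8 the later minus the earlier change was -1.17 ± 0.69 and not called (0.172). The call for Psmb9 was lost without e15.5 replicate 2 (-2.20, adjusted p = 0.0638) or replicate 3 (-2.50, adjusted p = 0.0534). Tap1 and Tap2 differed by 0.40 ± 0.25 and 0.42 ± 0.26 between e15.5 and p23 and were not called (limma adjusted p = 0.171 and 0.184), although the p23 arrays lay above all e15.5 arrays for each. Against e10.5, both chains were higher at p23, Tap1 by 0.76 ± 0.25 and Tap2 by 1.11 ± 0.26 (limma adjusted p = 0.0233 and 0.00360). Tap1 lost that call without e10.5 replicate 1 (0.43, adjusted p = 0.121), p23 replicate 2 (0.75, adjusted p = 0.0602) or p23 replicate 3 (0.70, adjusted p = 0.0668). Without the arrays with Hbb-y signal neither chain was called (Tap1 0.26, Tap2 0.85, adjusted p = 0.543 and 0.133), and Tap1 was not called with p23 replicate 1 alone (0.61, adjusted p = 0.243).

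Tapbp read 8.68, 8.82 and 8.82 at e15.5 and 8.69, 9.53 and 9.78 at p23. Only replicates 2 and 3 of p23 stood above the e15.5 arrays, and replicate 1 did not. The rise of 0.56 ± 0.22 was called (SE, limma adjusted p = 0.0396), but with p23 replicate 1 alone the difference was -0.079 (adjusted p = 0.752). Leaving out p23 replicate 3 alone gave 0.34 (adjusted p = 0.180). In the same arrays Sox9 read 11.62, 11.94 and 12.10, and the Ptprc values are given above. What set the order of the Tapbp values was not tested.

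Nlrc5 read 9.27, 9.15 and 9.03 at e15.5 and 10.15, 9.99 and 9.69 at p23, and Ciita read 6.97, 6.76 and 6.78 at e15.5 and 7.41, 7.39 and 7.24 at p23. Every p23 array lay above every e15.5 array for each gene. The rises were 0.80 ± 0.16 for Nlrc5 and 0.51 ± 0.12 for Ciita (SE, limma adjusted p = 0.000996 and 0.00295). Of the 17 Nlrc5 probe sets 14 were called higher and 0 lower, all read from the same arrays. The reported probe set had its lowest mean of the Sox9-GFP+ series at e15.5. Array medians were 201, 197 and 178 at p23 and 165 to 175 at e15.5, and their part in the rises of Nlrc5 and Ciita was not tested. Set against e10.5, the p23 levels of both coactivators were not called different: the differences of 0.08 ± 0.16 and 0.12 ± 0.12 between p23 and e10.5 were not called (limma adjusted p = 0.724 and 0.472). Of the 17 Nlrc5 probe sets 2 were called higher at p23 than at e10.5 and 0 lower.

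Cd74 read 6.24, 6.19 and 6.06 at e15.5 and 8.63, 9.65 and 8.92 at p23. All e15.5 arrays were dim and all p23 arrays were not, a rise of 2.90 ± 0.21 (SE, limma adjusted p = 1.1e-07). H2-Aa read 6.79, 6.70 and 6.61 at e15.5 and 8.12, 11.11 and 10.099 at p23. The p23 arrays of both genes ran in the order of Ptprc, lowest in replicate 1 and highest in replicate 2. The rise of H2-Aa was 3.08 ± 0.48 (SE, limma adjusted p = 0.000174). With p23 replicate 1 alone Cd74 still rose by 2.47, and H2-Aa by 1.42, which is less than the 3.08 of the full set by more than 1.5 times (adjusted p = 4.45e-06 and 0.000182).

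Leukocyte signal moved with these genes. Of 10 markers shared by leukocytes 9 rose from e15.5 to p23 in Sox9-GFP+ cells, and their summed intensity was 1209 to 1307 at e15.5, 2089, 6890 and 4120 in the 3 arrays of p23, and 69740 to 97174 in GFP- cells. Of 7 B cell genes 4 rose and 0 fell, with sums of 573 to 601, 792 to 1351 and 24350 to 49084 in the same groups. In Sox9-GFP+ p23, 3 of the 7, Cd79b, Cd22 and Pax5, lay above the 30th percentile in all arrays, and 2, Cd79a and Ms4a1, lay below it in all. Of 12 dendritic cell and macrophage genes 8 rose and 0 fell, with sums of 1516 to 1608 at e15.5, 4150 to 4457 in Sox9-GFP+ p23 and 3805 to 4440 in GFP- cells. Cd14 alone gave 2221, 2218 and 2836 of the Sox9-GFP+ p23 sums and 332 to 494 in GFP- cells, and against GFP- cells 6 of the 12 genes were lower and 1 higher. Of 10 tested T and NK cell genes 6 rose and 0 fell, with sums of 863 to 1078 at e15.5, 1248 to 1664 in Sox9-GFP+ p23 and 24841 to 35959 in GFP- cells. In Sox9-GFP+ p23, 4 of the 11 measured genes lay above the percentile in all arrays and 3, Ncr1, Nkg7 and Klrb1c, below it in all. Ncr1 was below it in all GFP- arrays as well. All 12 endothelial genes rose, from sums of 1042 to 1150 to sums of 1705 to 2178. In replicate 1 of p23 the sums were 2089 for the leukocyte and 792 for the B cell genes. They were 4150 for the dendritic cell and macrophage, 1248 for the T and NK cell and 1862.5 for the endothelial genes. The part of these cells in the rises of Cd74, H2-Aa, B2m and the other members was not tested.

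**Figure D3:**
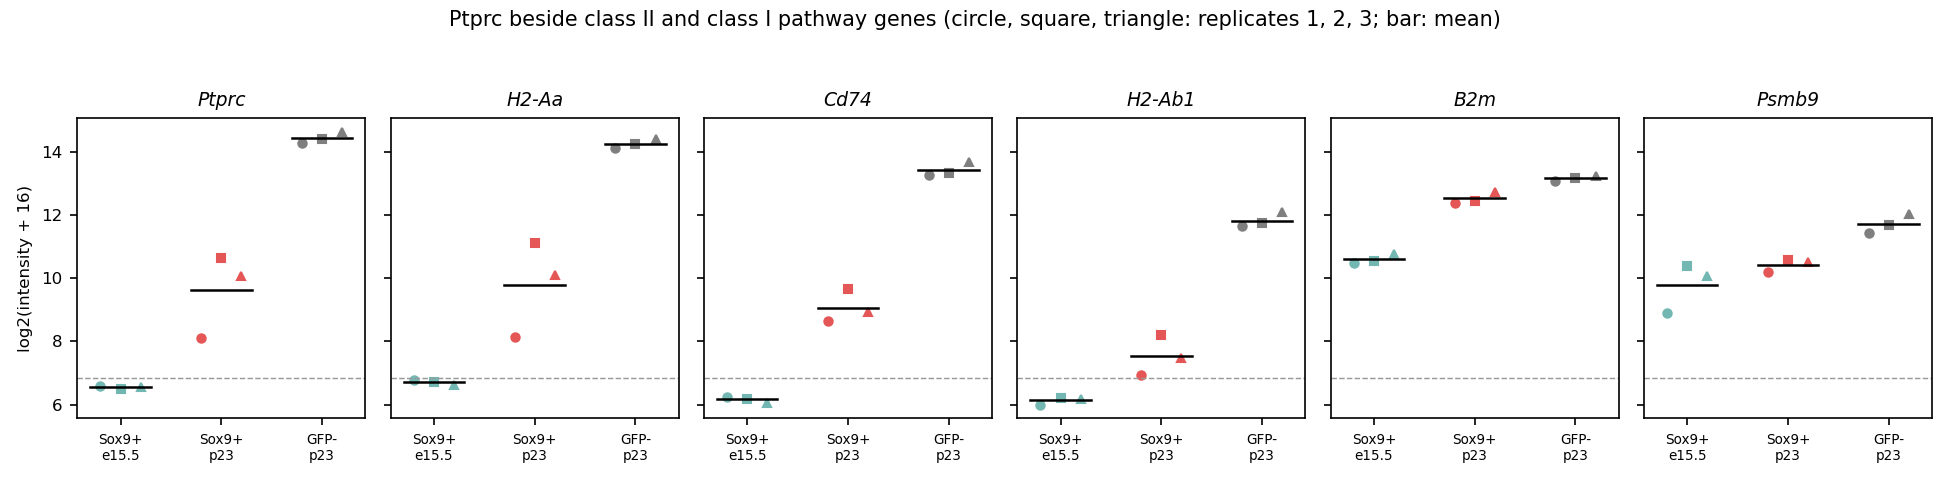
Ptprc beside H2-Aa, Cd74, H2-Ab1, B2m and Psmb9 in the arrays of Sox9-GFP+ e15.5, Sox9-GFP+ p23 and GFP- p23, as log2(intensity + 16), with replicates 1, 2 and 3 as circle, square and triangle, bars at group means and a dashed line at 6.83. In Sox9-GFP+ p23, H2-Aa, Cd74, H2-Ab1 and Psmb9 follow the order of Ptprc from replicate 1 to replicate 3 to replicate 2. The B2m arrays lie within 12.38 to 12.74 and are highest in replicate 3.

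The rest of the class II pathway moved less evenly than Cd74 and H2-Aa. Of 10 tested genes 3 rose from e15.5 to p23 and 2 fell. The rises were the lysosomal protease Ctss by 1.59 ± 0.23, the partner chain H2-Ab1 by 1.41 ± 0.24 and H2-Eb1 by 0.75 ± 0.21, and the falls were the thiol reductase Ifi30 by 0.91 and the protease Lgmn by 0.71. H2-Ab1, which pairs with the product of H2-Aa, read 5.996, 6.20 and 6.19 at e15.5 and 6.93, 8.20 and 7.48 at p23, again lowest in replicate 1 and highest in replicate 2. H2-DMa, a chain of the peptide exchanger, differed by 0.24 and was not called.

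The proteasome core, not called in the earlier interval, fell while Psmb8 and Psmb10 rose. Of its 14 genes 13 fell and 0 rose from e15.5 to p23, with a median change of -0.66. Psmb5 fell by 1.02 ± 0.17, Psmb6 by 0.89 ± 0.16 and Psmb7 by 0.74 ± 0.13 (limma adjusted p = 0.000332, 0.000398 and 0.000498), and Psmb10 rose by a further 0.83 ± 0.19 (adjusted p = 0.00249). In p23 replicate 1 the mean level of the 14 core genes was 11.29, against 12.07 to 12.14 at e15.5. Elsewhere in class I loading 3 of 14 genes rose, Psmb10, the tapasin relative Tapbpl (0.66) and the chaperone Canx (0.34), and 3 fell, the proteasome activators Psme3 (-0.82) and Psme2 (-0.61) and the assembly factor Pomp (-0.53). None of those 3 rises was called with p23 replicate 1 alone. Of the heavy chain genes 4 of 10 rose and 0 fell, and H2-Q4, a nonclassical class I chain, went from 7.40 to 7.60 at e15.5 to 9.55, 9.17 and 9.05 at p23, a rise of 1.79 ± 0.15 (SE, limma adjusted p = 5.50e-07).

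Upstream factors split. Among 7 genes of the RFX, CREB and NF-Y assembly, Rfx5 (0.51) and Nfya (0.37) rose, and Nfyb (-0.81), Nfyc (-0.28) and Creb1 (-0.27) fell. Of 16 interferon receptor, STAT and IRF genes 6 rose and 1, Irf3, fell. Irf1, the interferon-induced activator of class I and proteasome genes, read 8.18, 8.69 and 8.34 at e15.5 and 11.61, 11.09 and 11.01 at p23, a rise of 2.84 ± 0.26 (SE, limma adjusted p = 1.45e-06). Irf1 was higher in Sox9-GFP+ than in GFP- cells of p23 by 1.27 ± 0.26 (limma adjusted p = 0.00140). The part of leukocytes in its rise was not tested. Of 15 interferon-induced genes 10 rose and 1, the antiviral Rsad2, fell, led by the chemokine Cxcl10 at 3.48 and by Xaf1 and Ifit1, each at 2.10. In p23 replicate 1 the mean level of the 15 was 8.08, against 7.04 to 7.10 at e15.5. Among 9 costimulatory and checkpoint ligands 4 rose and 1, Cd276, fell. Icam1, an adhesion molecule, rose by 2.70, Lgals9 by 2.40 and Cd86, a ligand of T cell costimulation, by 0.72. Cd86 lay at 5.86 to 5.93 at e15.5 and 6.08 to 7.14 at p23, above the mark for dim signal in only 1 p23 array.

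Ngn3-GFP+ cells of e15.5 differed from Sox9-GFP+ cells of the same day in 4 members. B2m and Psmb8 were lower, Nlrc5 and Ciita were higher, and 6 members were not called. Among all genes 41.7% were called, 23.3% higher and 18.4% lower, so the members' share of 4 of 10 was close to the background. Higher calls were 55.9% of all calls as deposited, 42.5% after quantile normalization and 28.2% after median centring, where the median over genes was -0.14 instead of 0.04. Markers of other cells moved in this comparison as well: 7 of 12 dendritic cell and macrophage genes were higher in Ngn3-GFP+ cells and 1 lower, 5 of 10 T and NK cell genes, 6 of 12 endothelial genes and 2 of 10 leukocyte genes were higher and 0 lower, and 5 of 6 acinar genes were lower. Their part in the members' differences was not tested.

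B2m read 10.15, 9.37 and 9.61 in Ngn3-GFP+ arrays against 10.47 to 10.77 in Sox9-GFP+ arrays. The groups did not overlap, and B2m was lower by 0.88 ± 0.18 on the log2 scale in Ngn3-GFP+ cells (SE, limma adjusted p = 0.00378). Psmb8 read 7.37, 5.46 and 6.36 in Ngn3-GFP+ cells and 7.17, 8.49 and 8.33 in Sox9-GFP+ cells. The groups overlapped, with Ngn3-GFP+ replicate 1 above Sox9-GFP+ replicate 1, and the difference was -1.60 ± 0.40 (SE, limma adjusted p = 0.00856). With only these groups in the fit the adjusted p was 0.0573.

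Psmb9 was the most scattered member here, at 9.17, 10.68 and 8.48 in Ngn3-GFP+ arrays. It was not called (-0.34 ± 0.44, limma adjusted p = 0.545). Without Ngn3-GFP+ replicate 2, the array with the highest Psmb9 and the lowest Psmb8 of that group, the difference was -0.96 (adjusted p = 0.0421). Tap2 read 8.08, 7.23 and 6.76 in Ngn3-GFP+ cells, replicates 2 and 3 below every Sox9-GFP+ array and replicate 1 among them, and was not called (-0.56 ± 0.26, limma adjusted p = 0.102). Without Ngn3-GFP+ replicate 1 it was (-0.92, adjusted p = 0.00638). Tap1 differed by -0.01 ± 0.25 and Tapbp by 0.30 ± 0.22 (limma adjusted p = 0.987 and 0.279).

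Nlrc5 read 10.16, 10.05 and 9.92 in Ngn3-GFP+ cells, each above the 9.03 to 9.27 of Sox9-GFP+ cells, a difference of 0.89 ± 0.16 (SE, limma adjusted p = 0.00163). Of its 17 tested probe sets 9 were called higher and 0 lower. Ciita read 7.29, 7.07 and 7.21, above the 6.76 to 6.97 of Sox9-GFP+ cells, a difference of 0.35 ± 0.12 (SE, limma adjusted p = 0.0310) that was lost after quantile normalization (0.09, adjusted p = 0.437) and median centring (0.16, adjusted p = 0.151). Ngn3-GFP+ arrays had medians of 189 to 207, above those of Sox9-GFP+ e15.5, and the part of that in these differences was not tested. Cd74 and H2-Aa stayed near the dim mark in Ngn3-GFP+ cells and were not called (limma adjusted p = 0.401 and 0.679). Of the 14 proteasome core genes 7 were lower in Ngn3-GFP+ cells and 0 higher, and Psmb10 was lower by 0.60 ± 0.19.

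**Figure D4:**
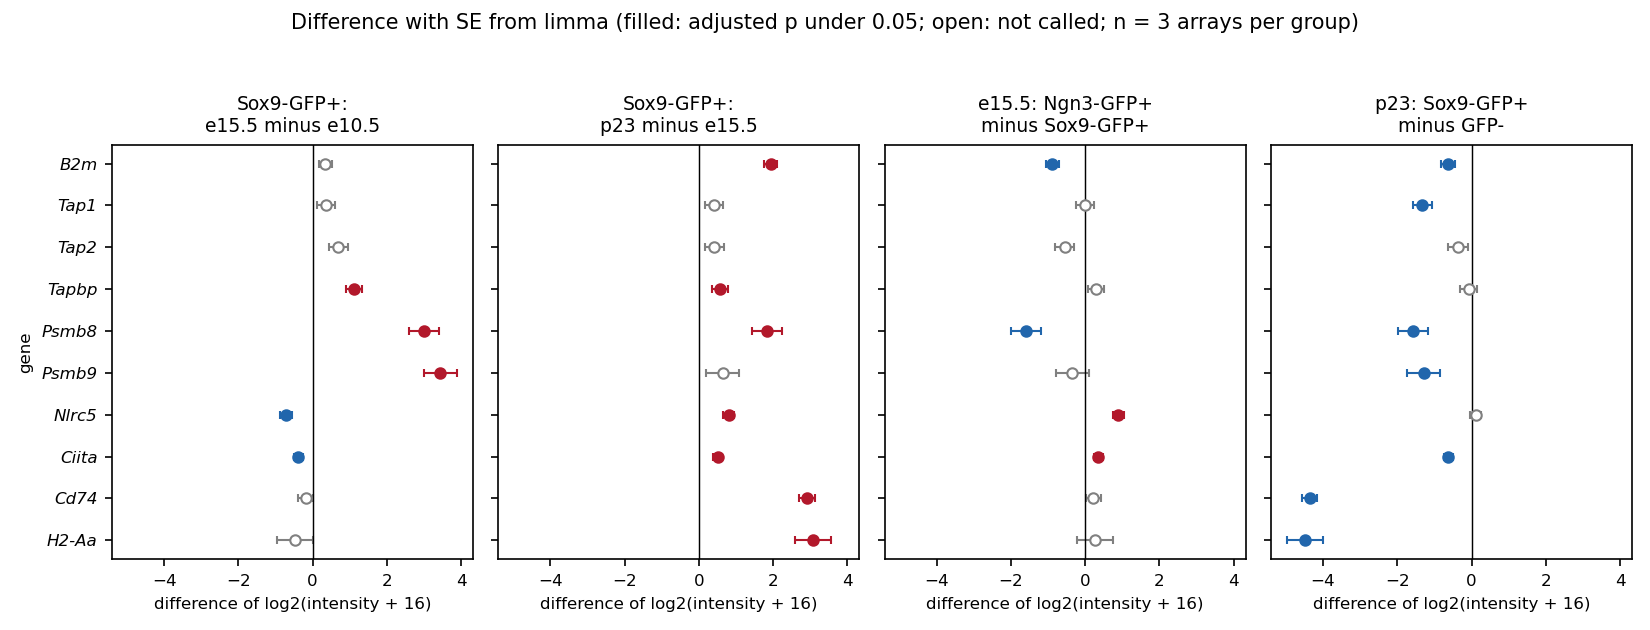
Difference of each gene between groups in 4 comparisons, as a difference of log2(intensity + 16) with its SE from limma, 3 arrays per group. Filled points were called at an adjusted p of 0.05, red higher and blue lower, and open points were not; Psmb8 and Psmb9 lead the earlier comparison, B2m, Cd74 and H2-Aa the later one, and the class II genes fall furthest below GFP- cells.

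At p23, 7 of the 10 members were lower in Sox9-GFP+ than in GFP- cells and 0 were higher. Of all genes 36% were called, 14.5% lower and 21.5% higher. Taking only replicate 1 of the Sox9-GFP+ arrays, the difference was -0.72 for Tapbp and -1.53 for Psmb9, which was no longer called. The members' median difference was -0.96 and that of all genes 0.07. By group means of log2 levels, Cd74 stood 20.5-fold and H2-Aa 22.3-fold below GFP- cells. Psmb8, of the class I pathway members the one furthest below, stood 2.98-fold lower. Of 10 tested class I heavy chain and related genes outside the members 4 were lower and 1 was higher. Among these, H2-M3 had means of 8.10 in Sox9-GFP+ and 10.02 in GFP- cells, and H2-T10 of 8.61 and 10.34. GFP- cells are every pancreatic cell without the reporter signal, and their markers of leukocytes were high, as given above.

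Cd74 read 8.63 to 9.65 in Sox9-GFP+ and 13.26 to 13.67 in GFP- cells, a difference of -4.36 ± 0.21 (SE, limma adjusted p = 9.17e-10). H2-Aa read 8.12 to 11.11 in Sox9-GFP+ and 14.12 to 14.40 in GFP- cells, a difference of -4.48 ± 0.48 (SE, limma adjusted p = 4.05e-06). Neither gene's groups came near each other. With p23 replicate 1 of the Sox9-GFP+ arrays alone, H2-Aa was lower by 6.13 on the log2 scale, and without that array the difference was -3.65. Ciita, which drives both, read 7.24 to 7.41 in Sox9-GFP+ and 7.87 to 8.06 in GFP- cells, and was lower by 0.62 ± 0.12 (SE, limma adjusted p = 0.000773). Of the 10 other class II pathway genes 9 were lower and 0 higher, with Ctss, H2-DMa and H2-Ab1 lower by 4.57, 4.32 and 4.28.

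B2m read 12.38 to 12.74 in Sox9-GFP+ and 13.08 to 13.24 in GFP- cells, a difference of -0.63 ± 0.18 (SE, limma adjusted p = 0.0129) that was lost after quantile normalization (-0.28, adjusted p = 0.240) and without Sox9-GFP+ replicate 1 (-0.56, adjusted p = 0.0527). Tap1 read 8.05, 8.23 and 8.32 in Sox9-GFP+ and 9.22, 9.54 and 9.81 in GFP- cells, a difference of -1.32 ± 0.25 (SE, limma adjusted p = 0.000632). Psmb8 was lower by 1.57 ± 0.40 and Psmb9 by 1.29 ± 0.44 on the log2 scale (SE, limma adjusted p = 0.00632 and 0.0345), and neither gene's groups overlapped. The call for Psmb9 was lost without any 1 of Sox9-GFP+ replicates 1, 2 and 3 or GFP- replicates 2 and 3, with adjusted p from 0.0587 to 0.109.

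Tap2, Tapbp and Nlrc5 were not called at p23. Tap2 read 8.26 to 8.45 in Sox9-GFP+ and 8.65 to 8.75 in GFP- cells, close but without overlap (-0.37 ± 0.26, limma adjusted p = 0.310). Tapbp read 8.69, 9.53 and 9.78 against 9.32, 9.49 and 9.43 and overlapped (-0.08 ± 0.22, adjusted p = 0.819), although Sox9-GFP+ replicate 1 alone was lower than GFP- cells by 0.72 (adjusted p = 0.0177). Nlrc5 read 10.15, 9.99 and 9.69 against 9.84, 9.74 and 9.93 (0.11 ± 0.16, adjusted p = 0.642). Some of its other probe sets differed from that result: of the 17 tested 5 were called lower in Sox9-GFP+ cells, down to -1.14, and 0 higher. Over the 17 the median difference was -0.20 and the highest 0.20.

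The order of the groups differed between members. GFP- p23 was highest for 9 members and Ngn3-GFP+ e15.5 for Nlrc5. Sox9-GFP+ p23 came next to GFP- p23 for those 9, without overlap for 8 (19.7% of all genes lay lower in Sox9-GFP+ than in GFP- cells without overlap) and with overlap for Tapbp. At the low end stood e10.5 for Tap1, Tap2, Tapbp, Psmb8 and Psmb9, Ngn3-GFP+ e15.5 for B2m and Sox9-GFP+ e15.5 for the remaining 4 genes, of which Nlrc5 and Ciita did not overlap their neighbour in the order. Over the 15 arrays Pearson's r between members was highest for Cd74 with H2-Aa, at 0.99, and lay between -0.06 and 0.54 for Nlrc5 with each other member. The arrays share their groups and their amplification, so these values describe the pattern and carry no test.

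By the same measure the genes most like H2-Aa were the leukocyte genes Ptprc (0.998), Cd53 (0.994) and Fyb (0.993), and those most like Cd74 were Sp100 (0.998), Ifi203 (0.997) and Ptprc (0.993). B2m was most like Dusp11 (0.985), Ly6e (0.982) and Tsc22d3 (0.981), and Psmb8 most like Shisa5 (0.987), Zc3hav1 (0.986) and Elf1 (0.984). Psmb9 stood with Tmed6 (0.959), Serpini2 (0.957) and Larp1b (0.956). Tap1 was most like Ppp3cc (0.965), H2-M3 (0.961) and Ctss (0.956), Tap2 most like Clpx (0.952), Gsap (0.941) and Fbxo33 (0.935), and Tapbp most like Stim1 (0.967), Cd164 (0.951) and S100a13 (0.950). Nlrc5 was most like Trim66 (0.984), Myo15 (0.979) and Piwil2 (0.976), and Ciita most like Chst3 (0.978), Chrdl2 (0.967) and Fam78a (0.965). With Ptprc itself r was 0.88 for B2m, 0.92 for Tap1, 0.74 for Tap2, 0.59 for Tapbp, 0.84 for Psmb8, 0.68 for Psmb9, 0.22 for Nlrc5 and 0.90 for Ciita.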

How the data were processed

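Per the submitters' processing notes, the authors ran PLIER in Affymetrix Expression Console 1.1, which yields linear intensity values. The sources used here do not say whether arrays were also scaled to each other. The deposited intensity values of 15 arrays were turned into log2(intensity + 16) without further scaling. Of 35557 probe sets 21789 named 1 gene, and 21698 of these were matched to RefSeq by gene identifier. Genes above intensity 97.8, the 30th percentile, in at least 3 arrays were tested with limma 3.58.1 (a mean per group, eBayes, Benjamini-Hochberg), a procedure tested on simulated data. Named were the members, Sox9, Ptprc, up to 5 called genes per list and comparison, genes that act with a member, and the 3 genes most like each member. The members and lists were chosen with earlier results of these data known. Alternatives were other offsets, filters, scalings, probe set rules and variance models, and arrays left out. Near-identical histocompatibility genes can share probe signal, which was not tested. The number of arrays limits the precision.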

Additional observations from a re-analysis of the deposited data

Results flagged for a closer look

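For 6 members the change from e15.5 to p23 in Sox9-GFP+ cells differed from the change from e10.5 to e15.5, tested as the difference of both changes in the limma fit. Both changes use the e15.5 arrays, and the intervals differ in length. Among all genes 26.8% were called with a larger later change and 21% with a smaller one. The later change was larger by 3.55 ± 0.83 for H2-Aa, 3.10 ± 0.36 for Cd74, 1.59 ± 0.31 for B2m, 1.51 ± 0.27 for Nlrc5 and 0.90 ± 0.21 for Ciita (SE, limma adjusted p = 0.00495, 3.89e-05, 0.00208, 0.00121 and 0.00437). For Psmb9 the later minus the earlier change was -2.79 ± 0.77 (SE, limma adjusted p = 0.0103). With p23 replicate 1 alone the difference for H2-Aa was 1.90 (adjusted p = 0.000441).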

How the results depend on the processing

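Leaving out each array in turn, the number of called members ran from 4 to 6 for e15.5 against e10.5, 6 to 7 for p23 against e15.5, 7 to 8 for p23 against e10.5, 3 to 5 for Ngn3-GFP+ against Sox9-GFP+, 5 to 7 for Sox9-GFP+ against GFP- and 5 to 7 for the difference of changes. With only the compared groups in the fit, 2 members were called for Ngn3-GFP+ against Sox9-GFP+. Over all alternatives 1539 of 1620 values of single members kept direction and side of the threshold, 16 gained a call, 41 lost one, 23 changed sign without being called in either setting (in 12 results, up to 0.27 in size) and 1 called value turned: Tapbp, p23 against e15.5, at -0.079 without Sox9-GFP+ p23 replicates 2 and 3. Of the Nlrc5 probe sets added after the data were seen, 5 were called lower than in GFP- cells, at -1.02, -0.53, -0.54, -1.14 and -0.42. Deviations of same-numbered arrays from their group means correlated from -0.49 to 0.20. With 3 arrays per group these values cannot show whether the numbers pair the arrays. With the replicate number as a block the calls were 5, 7, 8, 4 and 7 members in the first 5 comparisons, as without it. Changes of dim genes such as Psmb8 at e10.5 depend on the offset: its rise to e15.5 was 3.84 with an offset of 1 and 1.94 with 64.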
